A study of Mus musculus with 6 samples.

Results

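The C/EBP and MAF factors are transcription factor families known as myeloid partners of PU.1, and 9 of their genes were followed here by symbol in a deposited comparison of 23793 gene rows: Cebpa, Cebpb, Cebpd, Cebpe, Cebpg, Cebpz, Maf, Mafg and Mafk. Each symbol matched 1 row. Messenger RNA had been sequenced from the mouse line i660BM, pro-B cells (early B cell precursors) of strain C57BL/6 that contain PU.1 under doxycycline control and are grown with interleukin 7. The induced group held 3 samples given 70 ng/ml doxycycline for 48 h, and the non-induced group held 3 samples of the same line without the drug. No sample received doxycycline in cells without inducible PU.1, so the drug and the factor cannot be told apart. The labels do not say whether the 3 samples of a group were separate cultures, and p-values may therefore measure technical spread.

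C/EBP proteins bind DNA as pairs through a basic leucine zipper. C/EBPα, C/EBPβ, C/EBPδ and C/EBPε act in granulocyte and macrophage development, and forced C/EBPα or C/EBPβ in mouse B cells, acting with PU.1, turns them into macrophage-like cells. MAF proteins are leucine zipper factors too. The large factor c-MAF, the product of Maf, can activate transcription by itself, whereas the small factors MAFG and MAFK lack an activation domain and work through partners such as NRF2 and BACH proteins.

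Levels are in FPKM (fragments scaled to transcript length and to library depth), of which the file gave 1 value for each group and none per sample, so no standard deviation between samples is given. Calls are the authors': a gene was called, as rising or falling, if it had passed Cuffdiff's filter for testing with a q-value below 0.05. On this basis 35.1% of the 10657 tested rows were called, 19.0% as higher and 16.1% as lower in induced cells. Dividing a log2 change by its deposited test statistic gave an implied standard error (implied SE), shown with the 95% interval it would give, a relation that the table does not state. Levels, log2 changes and q-values given for single genes are those of the authors' deposited table. The lowest FPKM values lay on steps worth about 1 fragment, which corresponded to about 122000000 fragments in the induced and 117000000 in the non-induced group. Spi1, which encodes PU.1 and checks the labels, stood at 246 FPKM in induced and 36.0 FPKM in non-induced cells (log2 2.78, implied SE 0.12, q = 0.000287) in the authors' deposited table. The locus in the file covers 56.8% of the annotated Spi1 gene, and the value does not tell inducible from any other Spi1 transcripts. Of 12 pro-B cell markers 11 were tested, and these lay between 6.90 and 1197 FPKM in induced cells, whereas Kit, a receptor of early progenitors, was listed at 0 in both groups. Of the 11, 8 were called higher and 0 lower in the authors' deposited table (72.7%), with a median log2 change of 0.47, and the largest rises were those of Il7r (1.71), Dntt (1.63) and Igll1 (1.01). The part of this shift in the changes given for other genes was not tested. Of 7 defining neutrophil and macrophage markers in the table, 3 were listed at 0 in induced and 5 in non-induced cells, and their summed level was 0.475 FPKM in induced and 0.0169 FPKM in non-induced cells. None of the 7 was tested, so no change is claimed for them. The highest values in induced cells were those of Csf1r (0.192 FPKM), in a row that shares its locus with another, and Itgam (0.151 FPKM).

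Promoter sequences are shown for 4 of the members, because they set Cebpg, the member called, beside its chromosomal neighbour Cebpa, which was listed at 0, and the 2 tested small MAF genes beside each other. Each is the 250 bases before the RefSeq start site, from 5′ to 3′ on the gene's strand (GRCm38.p6). Capitals mark CCAAT, the box that gave the C/EBP family its name, in the C/EBP pair, and TGACG, a core bound by many leucine zipper factors, in the MAF pair, each on either strand. The windows are chr7:35056567-35056816 (minus strand) for Cebpg, chr7:35119043-35119292 (plus) for Cebpa, chr11:120633548-120633797 (minus) for Mafg and chr5:139791286-139791535 (plus) for Mafk.
Cebpg: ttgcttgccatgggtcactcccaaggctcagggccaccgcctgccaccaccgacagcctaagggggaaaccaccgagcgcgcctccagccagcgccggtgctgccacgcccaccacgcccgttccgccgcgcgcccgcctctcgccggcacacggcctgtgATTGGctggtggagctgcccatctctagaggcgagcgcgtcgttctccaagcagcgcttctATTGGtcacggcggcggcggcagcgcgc
Cebpa: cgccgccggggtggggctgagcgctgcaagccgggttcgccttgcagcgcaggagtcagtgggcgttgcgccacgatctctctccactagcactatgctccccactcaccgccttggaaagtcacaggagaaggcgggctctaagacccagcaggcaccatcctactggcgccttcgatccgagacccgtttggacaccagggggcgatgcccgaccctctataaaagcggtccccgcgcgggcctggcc
Mafg: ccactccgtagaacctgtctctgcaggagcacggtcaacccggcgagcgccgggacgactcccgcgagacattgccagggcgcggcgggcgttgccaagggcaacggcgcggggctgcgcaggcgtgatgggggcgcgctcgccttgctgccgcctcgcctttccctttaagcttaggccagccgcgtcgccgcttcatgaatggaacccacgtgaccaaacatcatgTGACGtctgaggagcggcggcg
Mafk: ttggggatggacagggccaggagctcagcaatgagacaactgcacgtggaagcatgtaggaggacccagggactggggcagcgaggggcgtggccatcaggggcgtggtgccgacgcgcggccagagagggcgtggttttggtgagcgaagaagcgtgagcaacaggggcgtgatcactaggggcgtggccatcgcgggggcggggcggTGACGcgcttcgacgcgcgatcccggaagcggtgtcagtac

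The Cebpg window held 2 matches to CCAAT and the Cebpa window 0, where 33.9% of 32851 promoter windows of this length held at least 1. TGACG occurred once each in the Mafg and Mafk windows, against 17.8% of all windows with a match. Other motifs were searched on both strands. GGAA, the core of ETS sites such as those of PU.1, was found in all 4 windows and in 93.5% of all windows. TTGCNNAA, the C/EBP palindrome, was found in 0 of the 4 (9.56% of all windows), and TGCTGA, one arm of the MAF recognition element, in the Mafk window only among the 4 (16.1% of all windows). No match in these 4 windows overlapped a match to another of the motifs. A match is a description of letters and not a binding site. RefSeq promoter entries were found for 5 of the 9 members, the other being Cebpb, and Cebpd, Cebpe, Cebpz and Maf had no entry.

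The members fell into a set that was clearly expressed and a set listed at or near 0, and Cebpa, Cebpb, Cebpd and Cebpe, the C/EBP genes best known from myeloid cells, were all in the second. Cebpg, Cebpz, Mafg and Mafk were tested by the authors and lay between 11.2 and 38.2 FPKM over both groups. Cebpa, Cebpb, Cebpd, Cebpe and Maf were not tested, and none of them exceeded 0.0650 FPKM in either group. These 5 of 9 members are to be read against all 23793 rows, of which 13135 were not tested. Of all rows 37.6% were listed at 0 in both groups, as were 3 of the 9 members. Of the 4 tested members 1 was called higher and 0 lower by Cuffdiff. The same counts were obtained at an unadjusted p under 0.05, and 1 call in 4 is to be read against the 35.1% of all tested rows that were called. The median log2 change was 0.05 for the 4 tested members and -0.01 for all tested rows.

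**Figure D1:**
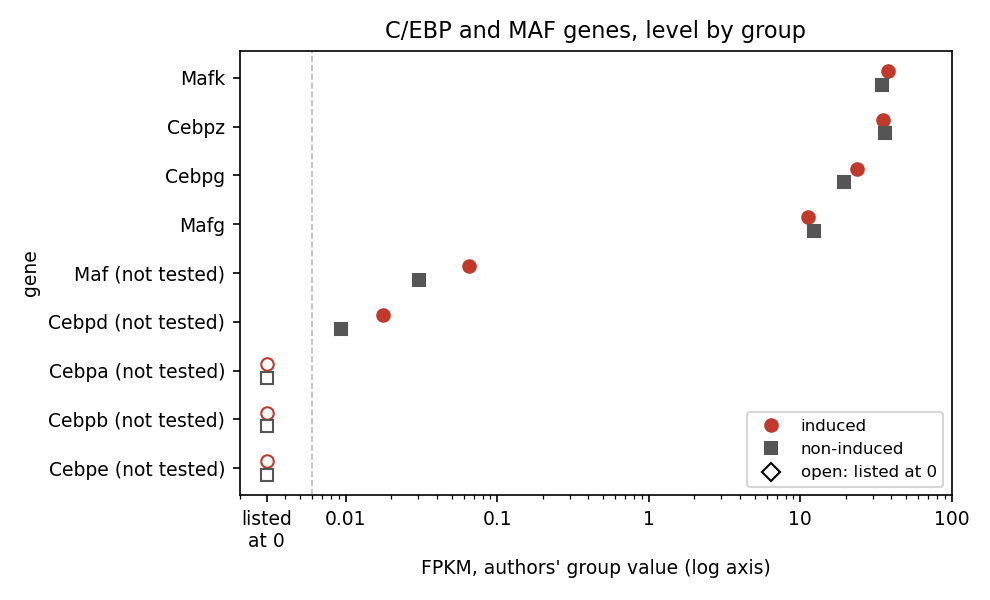
Level of each member in induced (red circles) and non-induced cells (grey squares), as the authors' group value in FPKM on a log axis, with open symbols left of the dashed line for genes listed at 0. The 4 tested genes lie at 11.2 FPKM or more in both groups, and the 5 untested genes at 0.0650 FPKM or less.

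The canonical myeloid factors were listed at or near 0 in both groups. Cebpa, which encodes C/EBPα, the factor that granulocyte and macrophage progenitors depend on, was listed at 0 FPKM in induced and in non-induced cells in the authors' deposited table. Its gene spans 35119293 to 35121928 on chromosome 7 (mm10, plus strand). Cebpb, which encodes C/EBPβ, a factor of macrophage activation and emergency granulocyte production (chromosome 2, 167688915 to 167690418), was likewise listed at 0 FPKM in induced and in non-induced cells in the authors' deposited table. Cebpe, which encodes the late granulocyte factor C/EBPε (chromosome 14, 54710360 to 54712174, minus strand), was also listed at 0 FPKM in both groups. None of the 3 received a test, so no change can be given for them. A listed 0 can be a failed estimate and does not show absence. Cebpb has a single annotated exon, and 141 of 899 rows of such genes reached 1 FPKM in either group.

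Cebpd and Maf had values just above 0. Cebpd, which encodes C/EBPδ, an acute phase and differentiation factor, stood at 0.0177 FPKM in induced and 0.00931 FPKM in non-induced cells in the authors' deposited table. It spans 15887286 to 15891031 on chromosome 16 (plus strand), and 1808 of its bases overlap the DNA repair gene Spidr on the minus strand. The row shares its locus with that of Spidr, which stood at 14.7 FPKM in induced and 14.2 FPKM in non-induced cells (q = 0.723), so fragments of the pair cannot be told apart with certainty. In the authors' deposited table Maf stood at 0.0650 FPKM in induced and 0.0303 FPKM in non-induced cells. The locus in the file covers 14.7% of the annotated Maf gene on chromosome 8 (115682942 to 115707794, minus strand), so the value describes a shorter gene model. Both genes carried the higher value in induced cells, but neither was tested and no change is claimed for them.

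Cebpg was the single member called. In the authors' deposited table it stood at 23.7 FPKM in induced and 19.4 FPKM in non-induced cells. That is a log2 change of 0.29 (implied SE 0.14, Cuffdiff q = 0.00321), or a 1.22-fold difference with an implied 95% interval of 1.00 to 1.48. Cebpg encodes C/EBPγ, a short member that lacks an activation domain and pairs with other leucine zipper proteins, ATF4 among them. The gene lies on the minus strand of chromosome 7 at 35046422 to 35056573, 62.7 kb from Cebpa. Of all tested rows 69.9% had a smaller absolute log2 change. With normal p-values from Cuffdiff's test statistic, Cebpg was no longer called, at a recomputed q-value of 0.197. No member was called on that scale.

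Cebpz had nearly the same level in both groups. In the authors' deposited table it stood at 35.1 FPKM in induced and 36.5 FPKM in non-induced cells. That is a log2 change of -0.05 (implied SE 0.16, Cuffdiff q = 0.683), with an implied 95% interval of -0.37 to 0.26. Despite its symbol, CEBPZ is not a leucine zipper protein. It belongs to a family of nucleolar proteins, related to yeast Noc1, that act in ribosome assembly. Cebpz lies on the minus strand of chromosome 17 at 78919006 to 78937066, and 1301 of its bases overlap Cebpzos on the plus strand. That gene shares the locus in the file and stood at 7.10 FPKM in induced and 8.06 FPKM in non-induced cells (q = 0.742).

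The small MAF genes were expressed at unequal levels and neither was called. Mafk stood at 38.2 FPKM in induced and 34.4 FPKM in non-induced cells in the authors' deposited table, at a log2 change of 0.15 (implied SE 0.13, Cuffdiff q = 0.163). The implied 95% interval ran from -0.11 to 0.41. Mafg stood at 11.2 FPKM in induced and 12.4 FPKM in non-induced cells in the authors' deposited table, at a log2 change of -0.14 (implied SE 0.14, Cuffdiff q = 0.266). Its implied 95% interval ran from -0.41 to 0.13, so that Mafk lay slightly above and Mafg slightly below its non-induced level, both within the error. Mafk spans 139791513 to 139802653 on chromosome 5 (plus strand) and Mafg 120625117 to 120633600 on chromosome 11 (minus strand), where the locus in the file covers 61.3% of the annotated gene. The FPKM value of Mafg was 0.295 of that of Mafk in induced and 0.360 in non-induced cells.

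In order of level, Mafk was followed by Cebpz, Cebpg and Mafg in induced cells, and Cebpz by Mafk, Cebpg and Mafg in non-induced cells. Mafk and Cebpz changed places at a ratio of Mafk to Cebpz close to 1 in both groups, and the spread of these levels over samples is unknown. The log2 change of Cebpg minus that of Mafk was 0.13 (implied 95% interval -0.25 to 0.52), and minus that of Cebpz it was 0.34 (-0.08 to 0.76). Minus that of Mafg it was 0.42 (0.04 to 0.81), the only 1 of the 6 pairs whose unadjusted interval left out 0. These differences were not tested over samples.

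**Figure D2:**
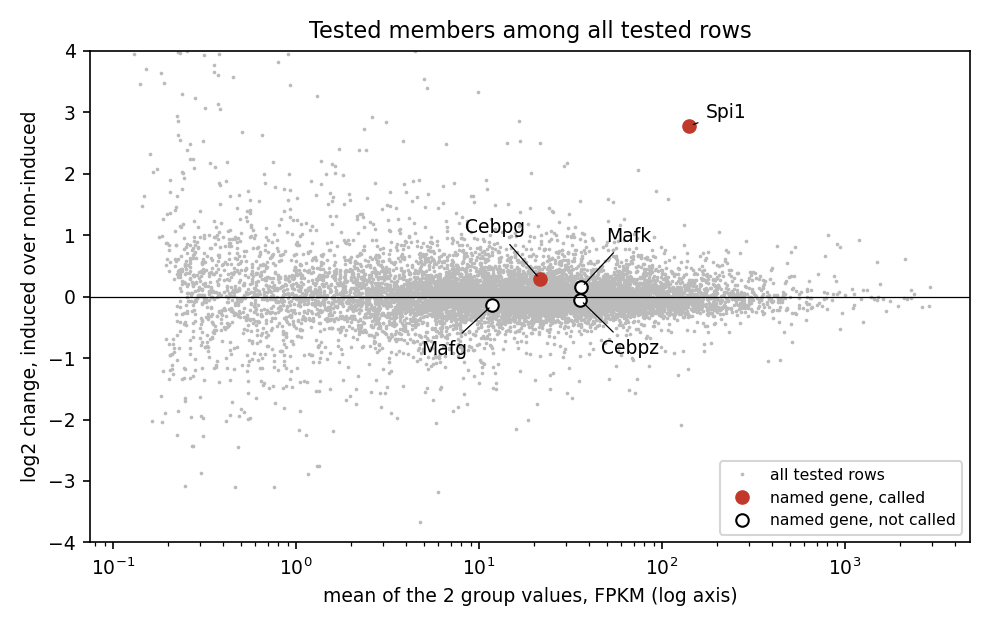
Log2 change, induced over non-induced, against the mean of the 2 group values in FPKM (log axis) for all tested rows (grey), with the tested members and Spi1 marked, red where called. The 4 members lie between -0.14 and 0.29, whereas Spi1 lies at 2.78; 48 rows beyond 4 in absolute log2 change and 29 with a value of 0 are not drawn.

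Among other MAF genes, Maff, the remaining small MAF gene, stood at 0.300 FPKM in induced and 0.296 FPKM in non-induced cells (log2 0.02, Cuffdiff, q = 0.98) in the authors' deposited table. Mafa and Nrl, which act in pancreatic beta cells and in the retina, were not tested and did not exceed 0.0344 FPKM. Maff was thus the only tested gene of these 3, and it was not called in either direction, also at an unadjusted p under 0.05.

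Among genes that pair with or regulate C/EBP proteins, Trib1, Batf and Atf3 fell and Rfwd2 rose. Of 12 listed genes 10 were tested, and 1 was called higher and 3 lower (40.0%, against 35.1% of all tested rows), with a median log2 change of 0.11. Trib1, a pseudokinase that brings C/EBPα to the ubiquitin ligase COP1 for degradation, fell to 6.43 FPKM in induced cells, against 14.2 FPKM in non-induced cells (log2 -1.15, implied SE 0.14) in the authors' deposited table. Rfwd2, which encodes COP1, rose to 6.42 FPKM in induced cells, against 4.16 FPKM in non-induced cells (log2 0.63, implied SE 0.16) in the authors' deposited table, in a row that shares its locus with another. These 2 genes of 1 degradation pathway thus moved in opposite directions. Trib2 (log2 0.11), Trib3 (0.20) and Fbxw7 (0.12), also on the list and named after their values were seen, were not called.

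Among leucine zipper partners, Batf, an AP-1 family factor of lymphocytes, fell to 12.99 FPKM in induced cells, against 24.9 FPKM in non-induced cells (log2 -0.94, implied SE 0.14) in the authors' deposited table. The stress factor gene Atf3 stood at 7.97 FPKM in induced and 9.40 FPKM in non-induced cells and was called lower (log2 -0.24, Cuffdiff, q = 0.035) in the authors' deposited table. Atf3 was not called with normal p-values (recomputed q-value 0.384), nor did it differ by 1.5-fold, and 2 genes of the list were lower under each of these settings. Atf4, which encodes the stress response partner of C/EBPγ, stood at 325 FPKM in induced and 315 FPKM in non-induced cells in the authors' deposited table (q = 0.743). Ddit3, which encodes CHOP, a C/EBP relative induced by stress, stood at 21.9 FPKM in induced and 17.2 FPKM in non-induced cells in the authors' deposited table. Its row shares a locus with another and had an implied SE of 0.50, and the gene did not pass the test (q = 0.457). Atf5, with a log2 change of 0.40 (implied SE 0.51), was not called either. In all 6 tested genes were not called, and 2, Batf2 among them, were not tested.

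The partners of the small MAF proteins moved in both directions. Of 7 listed genes 5 were tested, 2 of them called higher and 1 lower (60.0%, against 35.1% of all tested rows), with a median log2 change of -0.02. Bach2, a repressor that pairs with small MAF proteins and acts in B cell development, rose to 42.5 FPKM in induced cells, against 25.3 FPKM in non-induced cells (log2 0.75, implied SE 0.15) in the authors' deposited table, in a row that shares its locus with another. Bach1, a related repressor of haem and antioxidant genes, stood at 7.93 FPKM in induced and 6.84 FPKM in non-induced cells (log2 0.21, Cuffdiff, q = 0.0411) in the authors' deposited table. Nfe2l2, which encodes the antioxidant activator NRF2, fell to 35.1 FPKM in induced cells, against 47.5 FPKM in non-induced cells (log2 -0.44, implied SE 0.14) in the authors' deposited table. Of the 2 rises 1 was called with normal p-values, and that of Bach1 was not (recomputed q-value 0.416). In the authors' deposited table Nfe2l1, at 25.1 FPKM in induced and 25.4 FPKM in non-induced cells, and Keap1, the inhibitor of NRF2, at 23.2 FPKM in induced and 23.6 FPKM in non-induced cells, were not called there. Nfe2 and Nfe2l3 were not tested.

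**Figure D3:**
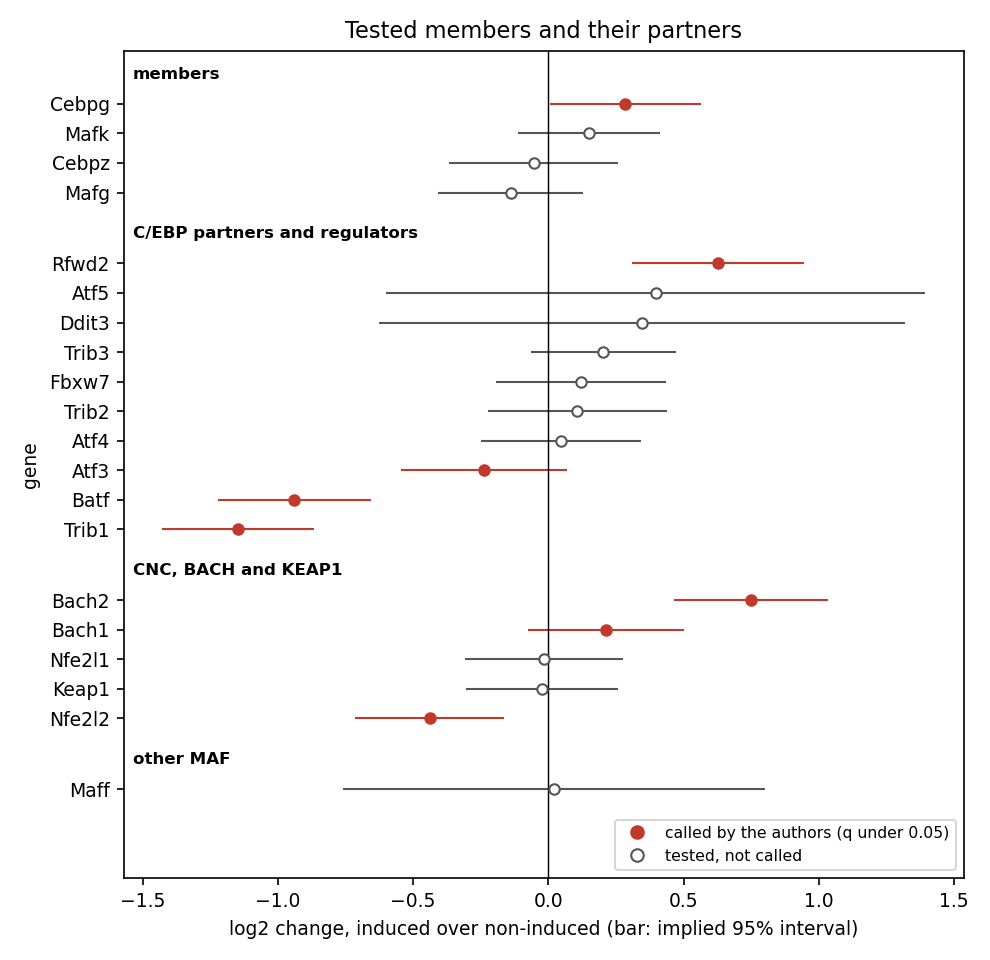
Log2 change, induced over non-induced, for the tested members and the tested genes of 3 related lists, with bars for the implied 95% interval and red for called genes. Trib1 (-1.15) and Batf (-0.94) lie farthest below 0 and Bach2 (0.75) and Rfwd2 (0.63) farthest above it; bars of some called genes cross 0 because the deposited p-values are smaller than normal p-values from the same statistic.

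Antioxidant response genes, known targets of NRF2 with small MAF proteins and of BACH1, were called in both directions. Of 21 listed genes 15 were tested, 4 of them called higher and 3 lower (46.7%, against 35.1% of all tested rows), with a median log2 change of 0.06. Blvrb, a biliverdin reductase, rose to 6.05 FPKM in induced cells, against 1.71 FPKM in non-induced cells (log2 1.83, implied SE 0.26) in the authors' deposited table. Fth1, the ferritin heavy chain, rose to 953 FPKM in induced cells, against 605 FPKM in non-induced cells (log2 0.66, implied SE 0.14) in the authors' deposited table. Gclm (log2 0.34 in the authors' deposited table), a subunit of the enzyme that limits glutathione synthesis, was called higher too, as was the gene of its other subunit, Gclc, which is named here after its values were seen. The lower genes in the authors' deposited table were the glutathione transferase gene Gstm1 (log2 -0.34) and the pentose phosphate genes Pgd (-0.30) and G6pdx (-0.29). The row of G6pdx shares its locus with another, and 2 genes of the list were lower once such rows were left out. At 1.5-fold or more, and likewise with normal p-values, 2 were higher and 0 lower. In the authors' deposited table Txnrd1, a thioredoxin reductase gene, stood at 146 FPKM in induced and 132 FPKM in non-induced cells and was not called (Cuffdiff, q = 0.203). Hmox1, Nqo1 and Srxn1, widely used as NRF2 reporters, were not tested, and none of the 6 untested genes exceeded 0.191 FPKM. Ferritin genes have many processed copies that can share fragments. The light chain gene Ftl1, also named after its values were seen, stood at 0.735 FPKM in induced and 0.747 FPKM in non-induced cells in the authors' deposited table, and both ferritin values are uncertain.

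A list of 5 nucleolar genes was set beside Cebpz, and whether they act with CEBPZ was not examined. The authors tested each of the 5 singly, and the list was not tested as a set. None was called higher, also at an unadjusted p under 0.05, and 3 were called lower, where 16.1% of all tested rows were. The median log2 change was -0.30. In the authors' deposited table Nop14 fell to 38.1 FPKM in induced cells, against 48.2 FPKM in non-induced cells (log2 -0.34, implied SE 0.15). Noc4l fell to 62.5 FPKM in induced cells there, against 78.0 FPKM in non-induced cells (log2 -0.32, implied SE 0.13). Pdcd11 fell to 22.1 FPKM in induced cells there, against 27.2 FPKM in non-induced cells (log2 -0.30, implied SE 0.15). All 3 act in assembly of the small ribosomal subunit. Noc2l and Noc3l, named for their yeast Noc relatives, had log2 changes of -0.13 and -0.06 there and were not called. None of the 5 differed by 1.5-fold, and with normal p-values 0 were called lower.

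**Figure D4:**
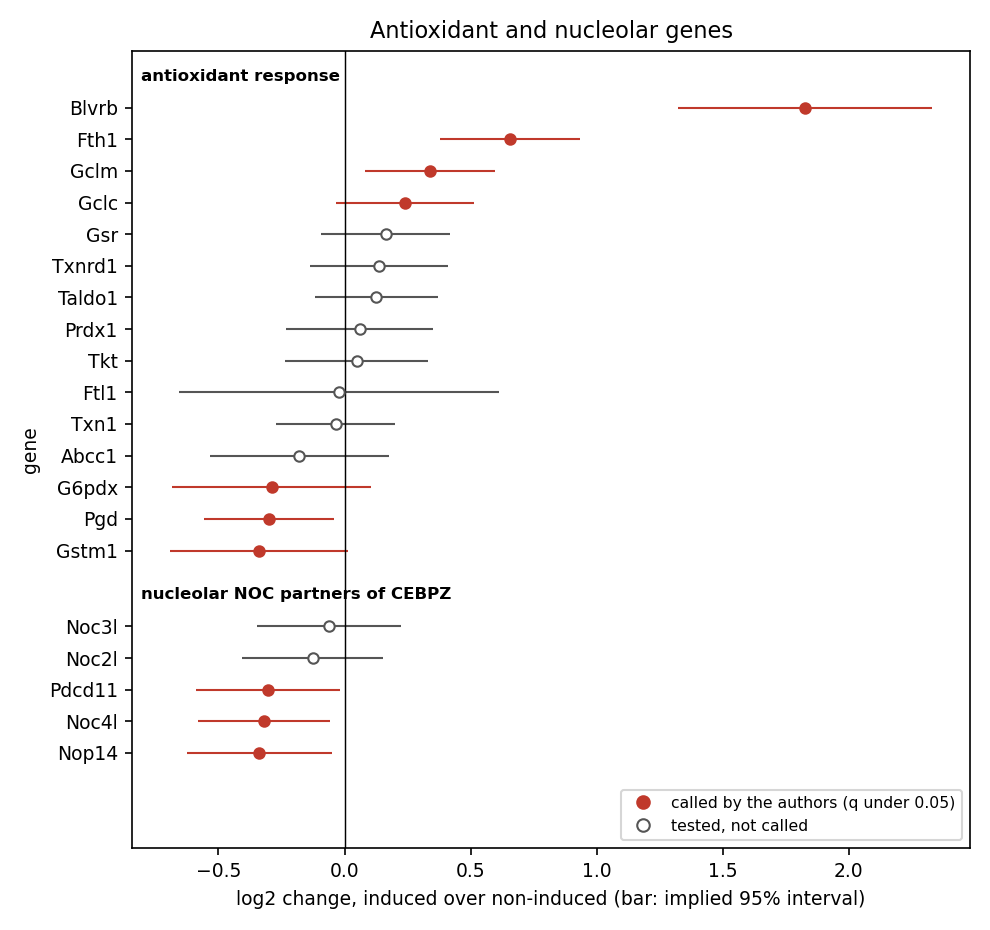
Log2 change, induced over non-induced, for tested antioxidant response genes and for the nucleolar genes set beside Cebpz. Bars give the implied 95% interval, and red marks called genes. The nucleolar genes are labelled as partners of CEBPZ, which was not examined. Blvrb lies highest at 1.83, and all 5 nucleolar genes lie below 0, between -0.34 and -0.06.

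Myeloid genes known as C/EBP or MAF targets were mostly untested. Whether C/EBP or MAF proteins acted on any of them in these cells was not tested. Of 18 granulocyte genes 1 was tested, Lyz2, a lysozyme of macrophages and granulocytes. It rose to 15.2 FPKM in induced cells, against 0.361 FPKM in non-induced cells (log2 5.39, implied SE 0.35) in the authors' deposited table. The granule protease genes Elane and Ctsg were among 11 listed at 0 in both groups, and none of the 17 untested genes exceeded 0.186 FPKM. Prtn3, a further protease gene, stood at 0.0565 FPKM in induced and 0.186 FPKM in non-induced cells, the highest value among them. The rows of Prtn3 and Elane are at 1 locus that holds 50 rows in the file, so their values are uncertain. Of 17 macrophage genes 2 were tested and both were called higher, where 19.0% of all tested rows were. They lay under 1 FPKM, outside the rule for named genes, and were named after their values were seen. Cd14, a co-receptor for lipopolysaccharide, stood at 0.995 FPKM in induced cells and was listed at 0 in non-induced cells, and Mrc1, the mannose receptor, stood at 0.276 FPKM in induced and 0.202 FPKM in non-induced cells (q = 0.029) in the authors' deposited table. The row of Mrc1 shares its locus with another, and with normal p-values it was not called (recomputed q-value 0.425). The cytokine genes Il6, Il1b and Il10 were listed at 0 in both groups. The macrophage growth factor receptor gene Csf1r, whose row shares a locus too, was not tested and was listed at 0.192 FPKM in induced cells and at 0 in non-induced cells. A gene near 0 without induction had enough fragments for a test chiefly if it rose, which tilts these calls toward rises. In bulk RNA, fewer cells of a type and less RNA per cell cannot be told apart, so a low value may stand for few cells or for little RNA in each.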

How the data were processed

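The authors made 3 induced and 3 non-induced mRNA libraries, stranded per the labels' protocols. Per the submitters' processing notes the tools were Cuffdiff 2.1.1, Cufflinks, TopHat2 2.0.9 and Trim Galore 0.2.8.1, on mm10. Which annotation and strand setting were used is not given in the sources used here. Per the file headers, the deposited table holds 1 FPKM value per gene and group, a log2 fold change, a score (the test statistic) and a p-value and q-value from Cuffdiff, all used as the authors deposited them. No test per gene was added, since no values per sample were given. Recomputed q-values differed from the deposited ones by at most 5.15e-07. The authors left 13135 rows untested. Depth per group was estimated from FPKM times transcript length, where 63.3% of low values in induced and 70.3% in non-induced cells lay within 0.15 of a whole number of steps (30% for evenly spread values). It is approximate, and depth per sample is unknown.

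Coordinates come from GENCODE M21 (same build) and promoters from RefSeq. The members, 7 related gene lists and 5 marker lists were chosen with earlier results of these data known. The T cell, erythroid and stromal lists summed to 14.4, 0.387 and 0 FPKM in induced and 34.9, 0.406 and 0.00390 FPKM in non-induced cells, and Cd28 alone gave 14.2 and 34.6 FPKM of the first. The globin genes Hba-a1 and Hbb-b1, 2 of the 6 erythroid genes listed, matched no row by symbol and are not in that sum. Named from each list were called genes with the largest change that reached 1 FPKM, and others in list order. Python 3.11.15, SciPy 1.17.1 and matplotlib 3.10.9 were used, with checks on simulated data. Alternatives were normal p-values from the test statistic (rows with an error mark there kept the deposited p-value), a minimum of 1 FPKM, a 1.5-fold minimum, leaving out shared loci, pseudocounts of 0.1 and 1, and centring.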

Additional observations from a re-analysis of the deposited data

How the results depend on the processing

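The direction of the 4 tested members was the same with pseudocounts of 0.1 and 1 and after centring on the median of tested rows, where the log2 change of Cebpg lay between 0.27 and 0.29. With normal p-values from the deposited test statistic, which called 15.4% of tested rows in place of 35.1%, the adjusted p of Cebpg was 0.197 and 0 members were called, as were 1 higher small MAF partner, 2 higher and 0 lower antioxidant genes, 1 higher macrophage gene and 0 lower nucleolar genes. At 1.5-fold or more the counts were 0 members higher, 1 higher and 0 lower small MAF partners, 2 higher and 0 lower antioxidant genes, 1 higher macrophage gene and 0 lower nucleolar genes. Without rows that share a locus, 0 C/EBP partners, 1 small MAF partner and 1 macrophage gene were higher, because fewer genes were tested, and Cebpz had no value. The minimum of 1 FPKM moved no count that it could give by more than 1.5 times, but it left no tested gene in the macrophage list, whose 2 higher calls are then lost, or among the other MAF genes. No paired analysis was possible because the table holds 1 value per group, and leaving out single samples was not run for the same reason. The 5 untested members have no test under any of these settings, and at about 122000000 fragments in the induced and 117000000 in the non-induced group, 1 fragment on a transcript of 1 kb was worth about 0.00822 FPKM in induced and 0.00853 FPKM in non-induced cells.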

Other observations

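Genes beside the members on the chromosome were examined by a rule chosen after the members' values had been seen. It took the nearest 2 protein-coding genes on each side that did not overlap the member and matched 1 row by symbol. Other members, and the overlapping genes Spidr and Cebpzos, were left out. The genes taken numbered 32, of which 21 were tested and 6 called, 1 higher and 5 lower. That is 28.6% of those tested, against 35.1% of all tested rows. The 4 genes taken around Cebpg and Cebpa were all untested. Chst8, Slc7a10 and Lrp3 were listed at 0 in both groups. Pepd, 1.71 kb from Cebpg, was listed at 0.0177 FPKM in induced cells and at 0 in non-induced cells. Among Cebpg, Cebpa and these 4 genes, only Cebpg, at 23.7 FPKM in induced and 19.4 FPKM in non-induced cells, exceeded 0.0177 FPKM. A value listed at or near 0 does not show absence. Ptpn1, a tyrosine phosphatase gene 242 kb from Cebpb, stood at 47.2 FPKM in induced and 57.7 FPKM in non-induced cells. It was called lower (log2 -0.29, implied SE 0.14), whereas Cebpb was listed at 0. Beside Mafg, Pcyt2, an enzyme gene of phosphatidylethanolamine synthesis, stood at 34.7 FPKM in induced and 44.8 FPKM in non-induced cells and was called lower (log2 -0.37, implied SE 0.14). The other called neighbours were Pard6b (log2 -0.76), Homez (-0.65) and Yars2 (-0.34), all lower, and Prkd3 (0.24), which was higher.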
